A study of Mus musculus with 9 samples.

Results

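The genes of glycolysis and of the cellular response to low oxygen were examined in RNA sequencing data of mouse valvular interstitial cells (VICs) in culture. These are fibroblast-like cells inside the leaflets of the heart valves. The 36 genes were listed by symbol: 21 encode the transporters and enzymes that carry glucose to lactate, and 15 encode the hypoxia-inducible factor HIF-1α (Hif1a), enzymes that use or sense oxygen, and other targets of HIF. All 36 were found among the 51810 genes of the deposited table, and 34 of them, 20 of glycolysis and 14 of the HIF group, averaged at least 1 TPM across the libraries and were tested. Aldoc and Car9 did not reach that level. TPM is the share of a library's transcripts that a gene accounts for, corrected for transcript length and scaled to a fixed total.

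VICs were isolated from C57BL/6J mice, whose age and number are not stated, and combine cells of the aortic and the mitral valve. One group received low-density lipoprotein (LDL), the main cholesterol-carrying particle of blood, a second received its oxidised form (oxLDL), and Control cells received buffer, although 1 label calls the Control cells untreated. Both lipoproteins were used at 50 ug/mL for 24 h, and each group had 3 libraries, numbered 1 to 3. All groups were grown in a medium with 10% serum, insulin at 5 ug/mL, EGF at 2 ng/mL and basic FGF at 0.5 ng/mL, so insulin and the lipoproteins of serum were present in Control as well. The labels give 5% CO2 and no oxygen level, and none of the groups is described as hypoxic. Nothing says that the 3 samples of a group were separate cultures or animals, so p-values capture sample-to-sample spread alone, and that spread may be technical.

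Glycolysis splits glucose into pyruvate and yields ATP without oxygen, and cells that keep it running turn pyruvate into lactate and export it. HIF-1α is degraded when oxygen is plentiful, because the prolyl hydroxylases of the EGLN family mark it for the ubiquitin ligase VHL, and it accumulates when oxygen is scarce. It then binds short ACGTG or GCGTG cores near its targets, which include most glycolytic enzymes, the glucose transporter GLUT1 and the angiogenic factor VEGF-A. Because HIF-1α is governed mainly at the protein level, the level of Hif1a transcripts does not report its activity.

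Reads per library are unknown, because TPM keeps no depth, and differences are therefore given against the spread between libraries alone. The libraries listed 20985 to 21433 genes above 0. Markers of fibroblasts summed to 19270 to 22610 TPM with LDL, 20670 to 22750 TPM with oxLDL and 21570 to 23530 TPM in Control, and 11 of 11 were tested. Markers of other cells were present at lower sums: 136 to 337.6 TPM with LDL, 133.5 to 317.9 TPM with oxLDL and 129.9 to 300.8 TPM in Control for 8 endothelial genes, and 242.8 to 740.3, 110.7 to 755.5 and 247.8 to 497.4 TPM in the same groups for 9 macrophage genes. Both sums were lowest, in each group, in the library numbered 2. Melanocyte markers summed to 8.74 to 22.24, 5.5 to 18.85 and 6.96 to 14.77 TPM and smooth muscle markers to 64.39 to 76.15, 65.81 to 74.08 and 75.75 to 89 TPM in the same groups. Of 7 cardiomyocyte markers only Tnnt2 was tested, and Myh6 averaged 0.7 TPM with LDL, 0.08 TPM with oxLDL and 0.02 TPM in Control. In bulk RNA, fewer cells of a type and less RNA per cell cannot be told apart.

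Promoter sequences were available from RefSeq (GRCm38.p6) for 34 of the 36 genes, as windows of 300 bases, 250 before and 50 after a transcription start. Both strands were searched for ACGTG and GCGTG, the letters of the core that HIF binds, and overlapping matches were merged. A core was present in 40 of 51 windows of these genes (78.4%), in 43.8% of all 32851 windows in the RefSeq table and in 61.7% of the 12421 windows of genes tested here. At least 1 window held a core in 18 of 21 glycolysis genes and 13 of 13 HIF group genes, against 67.9% of tested genes. A gene with more windows has more places for a core. These 34 genes had 51 windows, and the 9673 tested genes with an entry had 12421. The genes were also listed as part of the HIF response, so they are not a random draw of genes. The windows of these genes were richer in G and C (median 62.3%) than all windows (52.7%) and closer to those of tested genes (60.7%). The part of base composition in the share of windows with a core was not tested. A match describes letters only and is not evidence of binding.

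The windows of 5 genes are printed here because 4 of them were among the genes with the largest differences between LDL and Control, and the fifth, P4ha1, had LDL libraries above both other groups. They were chosen after those values were seen. Each is given 5′ to 3′ on the strand of the gene, with the cores in capitals as they read on that strand, so that CACGT and CACGC are cores of the other strand. Hk2 lies on the minus strand at chr6:82774405-82774704, Slc16a3 on the plus strand at chr11:120948817-120949116, Bnip3 on the minus strand at chr7:138909457-138909756, Egln3 on the minus strand at chr12:54203825-54204124 and P4ha1 on the plus strand at chr10:59323046-59323345.
Hk2: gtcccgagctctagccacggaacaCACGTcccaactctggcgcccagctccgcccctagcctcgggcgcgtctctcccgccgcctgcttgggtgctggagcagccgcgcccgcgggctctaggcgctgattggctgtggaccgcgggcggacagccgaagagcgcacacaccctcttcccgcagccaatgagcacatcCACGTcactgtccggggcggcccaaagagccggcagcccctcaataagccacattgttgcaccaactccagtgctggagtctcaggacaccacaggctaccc
Slc16a3: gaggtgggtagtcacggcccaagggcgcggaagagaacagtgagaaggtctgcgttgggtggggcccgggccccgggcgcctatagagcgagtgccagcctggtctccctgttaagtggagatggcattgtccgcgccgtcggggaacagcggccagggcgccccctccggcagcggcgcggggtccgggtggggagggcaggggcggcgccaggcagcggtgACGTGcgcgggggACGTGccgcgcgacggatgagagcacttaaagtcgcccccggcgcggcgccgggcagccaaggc
Bnip3: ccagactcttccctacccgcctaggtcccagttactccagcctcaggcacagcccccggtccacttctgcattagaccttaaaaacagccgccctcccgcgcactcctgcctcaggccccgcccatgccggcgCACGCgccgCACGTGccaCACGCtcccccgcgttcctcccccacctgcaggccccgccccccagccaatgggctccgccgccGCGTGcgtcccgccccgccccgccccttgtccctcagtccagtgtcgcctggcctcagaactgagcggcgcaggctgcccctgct
Egln3: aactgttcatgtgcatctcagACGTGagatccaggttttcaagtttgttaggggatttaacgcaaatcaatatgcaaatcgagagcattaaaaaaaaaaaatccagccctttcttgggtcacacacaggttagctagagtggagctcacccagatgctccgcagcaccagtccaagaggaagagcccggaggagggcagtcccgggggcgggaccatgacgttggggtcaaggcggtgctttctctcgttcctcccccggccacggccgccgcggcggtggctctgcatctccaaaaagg
P4ha1: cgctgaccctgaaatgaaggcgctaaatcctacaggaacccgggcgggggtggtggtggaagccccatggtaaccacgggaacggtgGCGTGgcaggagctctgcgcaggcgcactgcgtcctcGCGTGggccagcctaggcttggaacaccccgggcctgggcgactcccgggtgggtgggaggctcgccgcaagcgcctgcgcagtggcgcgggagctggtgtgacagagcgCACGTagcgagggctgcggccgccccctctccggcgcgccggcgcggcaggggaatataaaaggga

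In the Hk2 window the cores began at -226 and -52 from the start, and in the Slc16a3 window at -27 and -14. The Bnip3 window held 4 merged runs at -117, -108, -99 and -35, of which the run at -108 reads as a core on both strands. Egln3 had a single core at -229, and P4ha1 had 3, at -163, -126 and -16. Gpi1, Tpi1 and Eno2 had no core in these windows.

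The levels of the glycolysis genes, which TPM corrects for length, spanned a wide range. Gapdh, the dehydrogenase of the middle of the pathway, averaged 3661 TPM over the 9 libraries, and Pkm, the muscle-type pyruvate kinase, 2006 TPM. They were followed by Eno1 (enolase) at 1612, Ldha (lactate dehydrogenase A) at 1542 and Aldoa (aldolase A) at 1261 TPM. The 21 glycolysis genes together made up 1.28 to 1.47% of all TPM with LDL, 1.25 to 1.32% with oxLDL and 1.09 to 1.34% in Control. Entry to the pathway was expressed at a lower level, with Slc2a1 (the glucose transporter GLUT1) at 55.8, Hk1 at 84 and Hk2 at 22.7 TPM. In the HIF group Adm, which encodes the vasodilator peptide adrenomedullin, led with 430.9 TPM, ahead of P4ha1 (180.1), Hif1a (147.9) and Bnip3l (111.7).

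The first comparison asked how native LDL bears on these genes. In 31 of the 34 tested genes the mean was higher with LDL than in Control, against 49.4% of all 13495 genes tested. The median difference on the log2(TPM + 1) scale, which understates the change of genes with low values, was 0.21 for glycolysis, 0.16 for the HIF group and 0.00 for all genes tested. None of the 34 passed limma's test at an adjusted p under 0.05, a threshold that 0.333% of all genes passed. At an unadjusted p under 0.05, 10 genes were higher and 0 were lower with LDL, where 3.62 and 3.03% of all genes were. That count was 5 without LDL 2, 6 without LDL 3, 5 without Control 1, 18 without LDL 1 and 17 without Control 2. In a fit that blocks on the replicate number it was 18 higher and 2 lower, against 6.56 and 6.58% of all genes, and 1 gene, Gpi1, passed the adjusted threshold, as 0.852% of all genes did.

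In 25 of the 34 genes LDL was higher than Control in every same-numbered pair of libraries, which held for 17.9% of all genes. The LDL and Control groups did not overlap in 6 genes, and all 6 were higher with LDL, where 5.61% of all genes were higher and 5.06% lower without overlap. They were Hk2, Pfkfb3, Aldoa, Pkm, Egln3 and P4ha1. Adm, Ndrg1 and Slc16a1 were the 3 with a lower mean. Beside these values, all 9 macrophage markers also had a higher mean with LDL (median log2 difference 0.22), 7 of 8 endothelial markers had a lower mean (median -0.16), and 4 of 11 fibroblast markers had a higher mean (median -0.04). The 4 tested melanocyte markers had a higher mean (median 0.19), and the 3 tested smooth muscle markers (median -0.11) and Tnnt2 (-0.42) a lower one. The part of these cell markers in the differences was not tested.

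**Figure D1:**
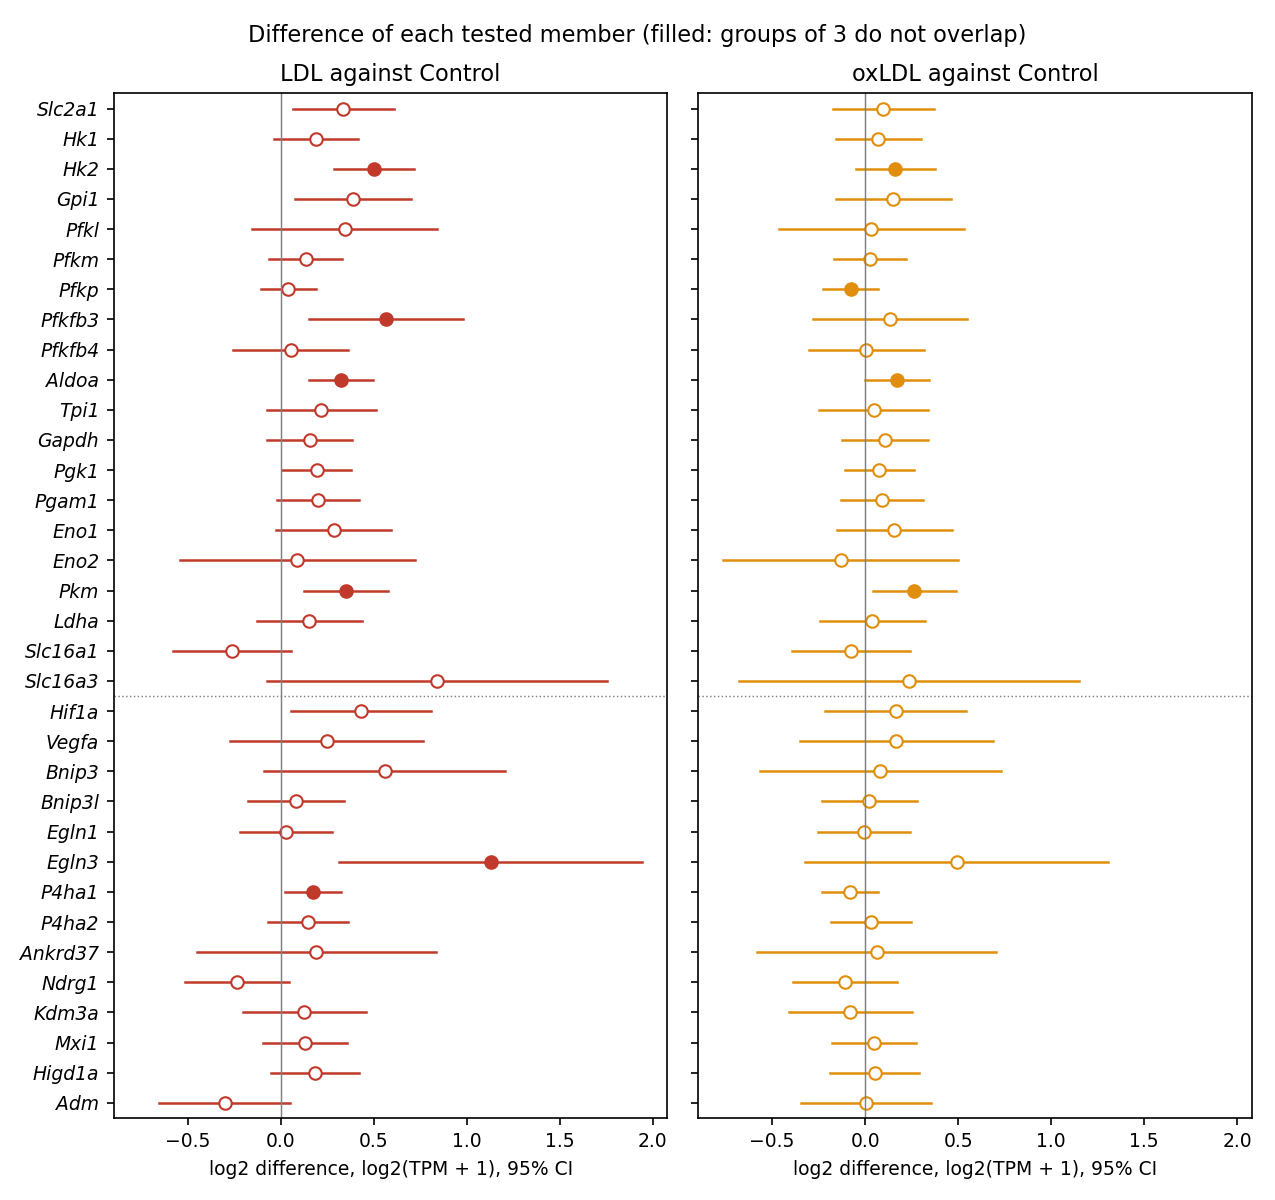
Log2 difference of each tested gene on the log2(TPM + 1) scale, with its 95% confidence interval, for LDL against Control (left) and oxLDL against Control (right), glycolysis genes above the dotted line and HIF group genes below it. Filled points mark genes whose 3 lipoprotein libraries and 3 Control libraries do not overlap, and 31 points on the left lie above 0.

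At the entry of the pathway, Hk2 encodes the inducible hexokinase that traps glucose as glucose 6-phosphate. The Hk2 gene (chr6:82725025-82774454, minus strand) stood at 24.4, 30.1 and 27.9 TPM with LDL, 21.2, 22.6 and 20.6 TPM with oxLDL and 20.3, 19.5 and 17.4 TPM in Control. All 3 LDL libraries were above the other 6, and all 3 oxLDL libraries were above Control. The LDL mean was 1.44-fold that of Control, and the log2 difference of 0.50 (95% CI 0.29 to 0.71, unadjusted p = 0.000506) did not pass adjustment (adjusted p = 0.0976, and 0.0519 with the block). Hk1, the constitutive hexokinase, averaged 90.2 ± 9.99 TPM with LDL, 82.9 ± 6.22 TPM with oxLDL and 78.9 ± 6.17 TPM in Control (SD, n = 3).

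Slc2a1 was at 54.8, 70.4 and 65.9 TPM with LDL, 52.4, 51.7 and 56.5 TPM with oxLDL and 48.5, 58.2 and 44.1 TPM in Control. LDL 2 and LDL 3 were above every other library, while LDL 1 lay below Control 2. Its log2 difference between LDL and Control was 0.34 (adjusted p = 0.554).

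Gpi1, the isomerase that turns glucose 6-phosphate into fructose 6-phosphate, lies on the minus strand at chr7:34201330-34230336. Its values were 449, 568 and 610.2 TPM with LDL, 414, 479.5 and 479 TPM with oxLDL and 351, 461 and 428 TPM in Control. The groups overlapped, since Control 2 exceeded LDL 1, but within each replicate number LDL was above oxLDL and oxLDL above Control. The log2 difference of 0.39 between LDL and Control (95% CI 0.08 to 0.70) had an adjusted p of 0.545, and in the blocked fit Gpi1 rose with LDL (adjusted p = 0.035). Its differences within numbers 1, 2 and 3 were 0.35, 0.30 and 0.51.

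The phosphofructokinases commit the sugar to glycolysis. Pfkl averaged 87.8 ± 18.8 TPM with LDL, 69.9 ± 9.33 TPM with oxLDL and 69.9 ± 21.4 TPM in Control (SD, n = 3), and Pfkm 22.5 ± 1.99, 20.8 ± 1.1 and 20.4 ± 1.09 TPM in the same groups. Their log2 differences between LDL and Control were 0.34 and 0.13 (adjusted p = 0.954 and 0.956), and that of Pfkl was 0.18 without Control 3 and 0.58 without Control 2. Pfkp was at 32.4, 36.1 and 34.1 TPM with LDL, 32.1, 32 and 30.1 TPM with oxLDL and 33.3, 33.3 and 32.9 TPM in Control. All 3 oxLDL libraries were below the other 6, by a log2 difference of -0.08 from Control (adjusted p = 1). Exons of Pfkp overlap those of Pitrm1 on the opposite strand by up to 748 bases. Because the library kit keeps no strand information, reads from the overlap cannot be assigned by strand.

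Pfkfb3 makes fructose 2,6-bisphosphate, the activator of phosphofructokinase. It was at 11.7, 14.7 and 20.5 TPM with LDL, 10.2, 9.85 and 13.3 TPM with oxLDL and 9.99, 9.73 and 10.1 TPM in Control. The 3 Control libraries lay close together, every LDL library was above them, and LDL 3 was the highest of all. Its log2 difference between LDL and Control was 0.57 (95% CI 0.15 to 0.98, adjusted p = 0.456), and it was 0.36 without LDL 3. Pfkfb4, its paralogue, averaged 3.92 ± 0.401 TPM with LDL, 3.79 ± 0.797 TPM with oxLDL and 3.73 ± 0.1 TPM in Control (SD, n = 3).

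Aldoa, which cleaves fructose 1,6-bisphosphate, was at 1319, 1411 and 1471 TPM with LDL, 1267, 1246 and 1271 TPM with oxLDL and 1102, 1223 and 1040.1 TPM in Control. The 3 groups did not overlap, with LDL above oxLDL and oxLDL above Control. Its log2 difference was 0.32 with LDL (95% CI 0.15 to 0.49, adjusted p = 0.226) and 0.17 with oxLDL (adjusted p = 1) against the same Control libraries. The other aldolase, Aldoc, had 0.34 to 1.34 TPM with LDL, 0.26 to 0.97 TPM with oxLDL and 0.48 to 1.33 TPM in Control.

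Pkm, which makes pyruvate, was at 1987, 2316 and 2320.4 TPM with LDL, 2034, 2152 and 2039 TPM with oxLDL and 1588, 1968 and 1646 TPM in Control. Both lipoprotein groups lay above Control and overlapped with each other. The log2 difference was 0.35 with LDL (95% CI 0.13 to 0.58, adjusted p = 0.349) and 0.26 with oxLDL (95% CI 0.04 to 0.49, adjusted p = 1). The gene has spliced forms with different regulation, and the values are sums over the gene.

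Between aldolase and pyruvate kinase come the dehydrogenase, the kinase, the mutase and the enolase. Gapdh was at 3888, 3853 and 3731 TPM with LDL, 4076, 3736 and 3324 TPM with oxLDL and 3480.4, 3788 and 3073 TPM in Control, and its groups overlapped (log2 difference with LDL 0.15, adjusted p = 0.956, and 0.07 without Control 3). Pgk1, the first ATP-producing kinase of the pathway, had 737, 832 and 776 TPM with LDL, 736, 728 and 698 TPM with oxLDL and 644, 762 and 648 TPM in Control. LDL 1 was below Control 2, so the groups overlapped, and the log2 difference with LDL was 0.19 (adjusted p = 0.702).

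Eno1 had 1486, 1957 and 1868 TPM with LDL, 1468, 1747 and 1624 TPM with oxLDL and 1267, 1691 and 1404 TPM in Control. Its levels followed the replicate number more than the treatment: in every group the library numbered 1 was the lowest and that numbered 2 the highest. The log2 difference with LDL was 0.28 (adjusted p = 0.81, and 0.0811 with the block). Tpi1, Pgam1 and the neuronal enolase Eno2 differed from Control by 0.22, 0.20 and 0.09 on the same scale with LDL (adjusted p = 0.925, 0.813 and 1), and Tpi1 by 0.12 without Control 3 and 0.36 without Control 2. A processed copy, Pgam1-ps2, was listed at 43.2 to 65.3 TPM, and reads of Pgam1 and this copy may have been split between them.

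At the end of the pathway Ldha, which reduces pyruvate to lactate, had 1454, 1834 and 1628 TPM with LDL, 1447, 1595 and 1482 TPM with oxLDL and 1350.3, 1763 and 1326 TPM in Control. The groups overlapped, with Control 2 above LDL 1 and LDL 3, and the log2 difference with LDL was 0.15 (adjusted p = 0.99), with 0.07 without LDL 2 and 0.29 without Control 2. Lactate leaves the cell through monocarboxylate transporters, of which Slc16a3 encodes the export form MCT4 and Slc16a1 the form MCT1. These 2 genes are given in full although they were singled out after their values were seen.

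Slc16a3 had 41.5, 91.6 and 68.4 TPM with LDL, 33, 37.7 and 57.7 TPM with oxLDL and 29.9, 64.4 and 22.5 TPM in Control. Control 2 was above LDL 1 and above all 3 oxLDL libraries, so the groups overlapped, and the highest library was 4.07 times the lowest. The log2 difference with LDL was 0.84 (95% CI -0.07 to 1.76, adjusted p = 0.81), and it was 0.53 without Control 3 and 1.27 without Control 2. Slc16a1 had 11.8, 14.6 and 14.6 TPM with LDL, 13.7, 17.5 and 15.8 TPM with oxLDL and 14, 16.4 and 19.5 TPM in Control. Its LDL libraries were lower than Control within each number, with a log2 difference of -0.26 (adjusted p = 0.866), and of -0.15 without Control 3.

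**Figure D2:**
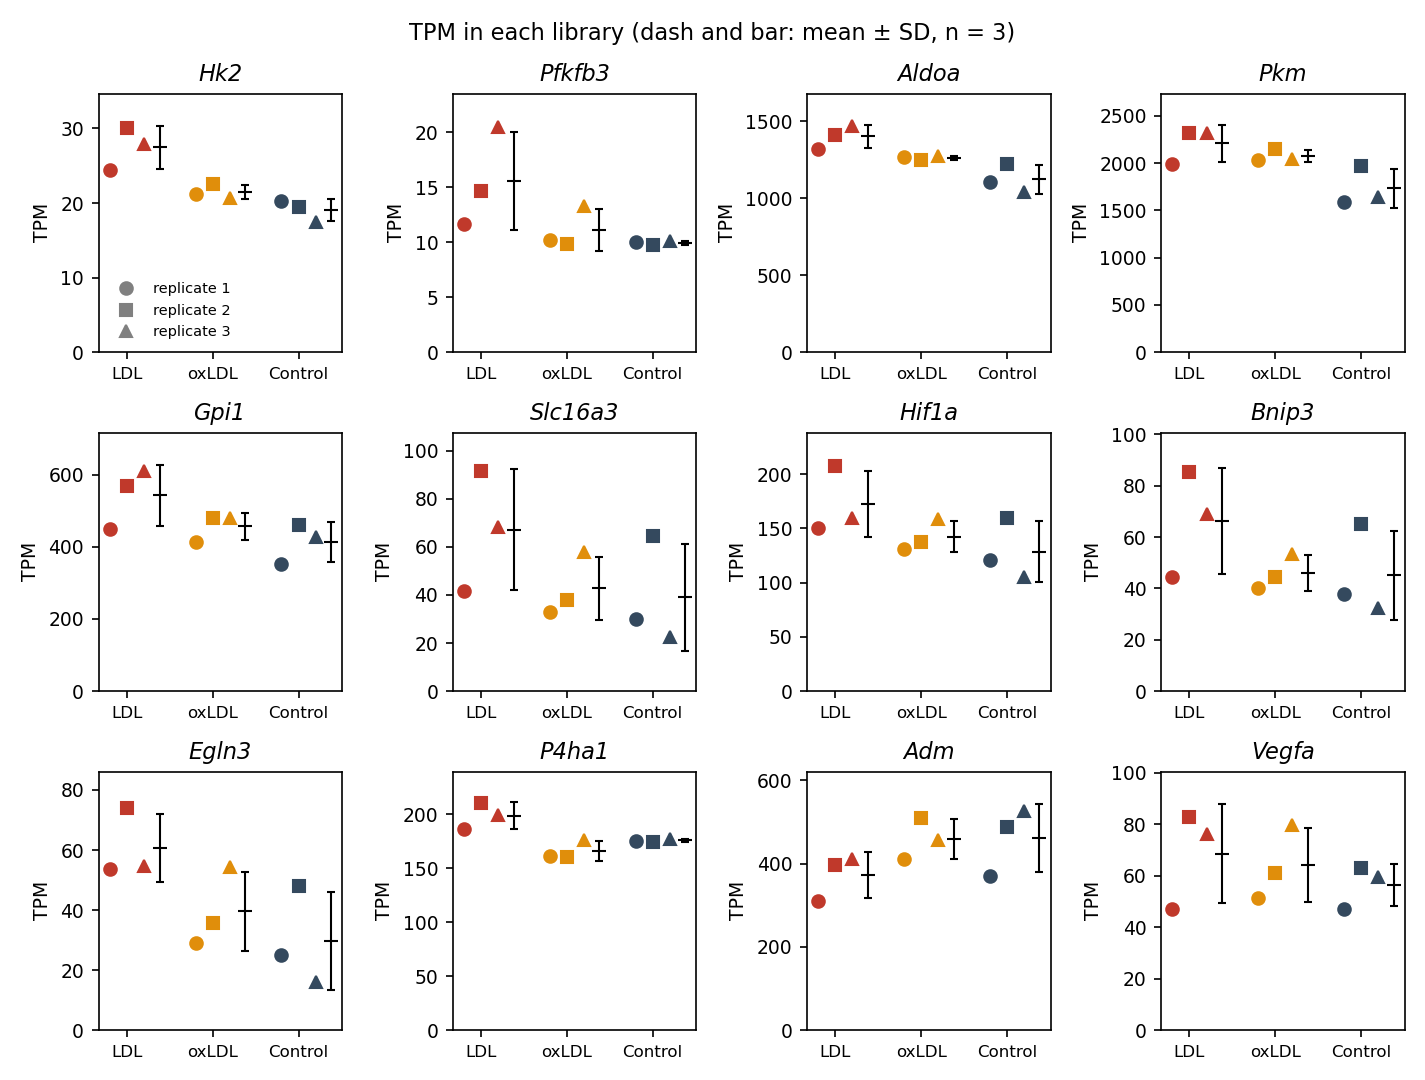
TPM of 12 genes in each of the 9 libraries, grouped as LDL, oxLDL and Control, with the replicate number as the symbol and the mean ± SD of 3 libraries as a dash and bar. Hk2, Pfkfb3, Aldoa, Pkm, Egln3 and P4ha1 have every LDL library above every Control library, and Adm has every LDL library below every oxLDL library.

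Of the HIF group, Hif1a had 151, 208 and 159.6 TPM with LDL, 131, 138 and 158 TPM with oxLDL and 121, 159.7 and 106 TPM in Control. LDL 2 was the highest, and Control 2 lay just above LDL 3. The log2 difference with LDL was 0.43 (95% CI 0.05 to 0.81, adjusted p = 0.62), and LDL was higher in each numbered pair. An overlapping antisense gene, Gm15283, averaged 1.24 TPM.

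Egln3 encodes the oxygen-sensing prolyl hydroxylase PHD3, itself a target of HIF, at chr12:54178981-54203860 on the minus strand. It had 53.6, 73.9 and 54.6 TPM with LDL, 29, 35.6 and 54.3 TPM with oxLDL and 24.9, 48 and 16.1 TPM in Control. All LDL libraries were above all Control libraries, while oxLDL 3 lay between LDL 1 and LDL 3. The LDL mean was 2.05-fold that of Control, the largest ratio among the 36 genes, with a log2 difference of 1.13 (95% CI 0.31 to 1.94, adjusted p = 0.444). Egln1, which encodes the main sensor PHD2, averaged 40 ± 5.07 TPM with LDL, 39 ± 3.57 TPM with oxLDL and 39.1 ± 2.73 TPM in Control (SD, n = 3).

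P4ha1 and P4ha2 encode catalytic subunits of collagen prolyl hydroxylase, which also uses oxygen. P4ha1 had 186, 211 and 199 TPM with LDL, 162, 160 and 176 TPM with oxLDL and 175, 175 and 177 TPM in Control. Every LDL library was above all others, and the log2 difference from Control was 0.17 (95% CI 0.02 to 0.32, adjusted p = 0.611). P4ha2 averaged 65.9 ± 7.21 TPM with LDL, 60.8 ± 3.62 TPM with oxLDL and 59.5 ± 4.85 TPM in Control (SD, n = 3).

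Bnip3 and Bnip3l encode mitochondrial receptors for mitophagy. Bnip3 had 44.3, 85.4 and 68.9 TPM with LDL, 40.2, 44.3 and 53.5 TPM with oxLDL and 37.9, 64.9 and 32.4 TPM in Control. Libraries LDL 2, LDL 3 and Control 2 were high and the other 6 lay at 53.5 TPM or below. The log2 difference with LDL was 0.56 (95% CI -0.09 to 1.21, adjusted p = 0.848), and it was 0.35 without LDL 2 and 0.85 without Control 2. Bnip3l averaged 115 ± 12.7 TPM with LDL, 110.4 ± 3.98 TPM with oxLDL and 109 ± 16.4 TPM in Control (SD, n = 3).

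Among secreted products, Vegfa had 46.9, 82.8 and 76 TPM with LDL, 51.4, 61.2 and 79.7 TPM with oxLDL and 47.2, 62.9 and 59.3 TPM in Control. The library numbered 1 was lowest in every group, and the difference of 0.25 on the log2 scale with LDL had an adjusted p of 0.999. It was 0.09 without LDL 2 and 0.49 without LDL 1. Adm went the other way, with 309, 398 and 410.1 TPM with LDL, 411, 509 and 458 TPM with oxLDL and 369, 488 and 527 TPM in Control. LDL was below Control within each replicate number, although LDL 2 and LDL 3 exceeded Control 1. The log2 difference was -0.30 (95% CI -0.65 to 0.05, adjusted p = 0.845, and 0.11 with the block), and it was -0.17 without LDL 1 and -0.45 without Control 1.

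Ndrg1, a stress-induced gene that HIF activates, had 16.5, 15.6 and 12.7 TPM with LDL, 17.9, 14 and 17.3 TPM with oxLDL and 18.9, 17.7 and 16.4 TPM in Control. LDL 1 came just above Control 3, so these groups overlapped, with a log2 difference of -0.23 (adjusted p = 0.862), and of -0.13 without LDL 3. Car9, the membrane carbonic anhydrase often used as a sign of hypoxia, stayed low at 0.73, 1.6 and 1.08 TPM with LDL, 1.11, 0.81 and 0.48 TPM with oxLDL and 0.36, 1.37 and 0.89 TPM in Control. Its groups overlapped and it was not tested. The remaining HIF targets, Kdm3a (a histone demethylase), Mxi1 (a MYC antagonist), Higd1a (a mitochondrial protein) and Ankrd37, had log2 differences with LDL of 0.13, 0.13, 0.18 and 0.19 (adjusted p = 1, 0.982, 0.915 and 1). Ankrd37 averaged 1.45 TPM over the 9 libraries, and an exon of Ufsp2, which averaged 50.2 TPM, overlaps it on the opposite strand. Mxi1 averaged 7.24 TPM and likewise overlaps Gm10197 at 9.4 TPM.

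The second comparison asked how oxidised LDL bears on the same genes. The mean was higher with oxLDL in 27 of 34 genes, against 49% of all genes tested, with a median log2 difference of 0.08 for glycolysis and 0.04 for the HIF group and 0.00 for all genes. The first count was 18 without Control 3. None passed the adjusted test, which 0.0148% of all genes did, and the adjusted p was 1 in all 34. At an unadjusted p under 0.05, 2 genes were higher with oxLDL, Pkm and Aldoa, against 1.79% of all genes, and 0 were lower, against 2.07%. In the blocked fit 4 were higher, against 4.36%, and 0 lower, against 4.73%. Hk2, Aldoa and Pkm had oxLDL libraries wholly above Control (3.5% of all genes did) and Pfkp wholly below (3.83% of all genes did). In 7 genes oxLDL was higher in every same-numbered pair, where 13.1% of all genes were. Beside these values, 4 of 9 macrophage markers (median -0.01) and 3 of 4 melanocyte markers (median 0.13) had a higher mean with oxLDL, while 6 of 8 endothelial (median -0.19), 7 of 11 fibroblast (median -0.06) and 3 of 3 smooth muscle markers (median -0.20) and Tnnt2 (-0.46) had a lower one, and their part was not tested. The 2 lipoprotein comparisons share their Control libraries, so they are not independent of each other.

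Within replicate numbers the oxLDL differences varied. For glycolysis the median log2 difference from Control was 0.10, -0.03 and 0.22 in pairs 1, 2 and 3, and for the HIF group 0.05, -0.13 and 0.24. In pair 2, 1 of the 14 HIF group genes, Adm, was higher with oxLDL than in Control. For LDL the medians in the 3 pairs were 0.17, 0.19 and 0.34 for glycolysis and 0.06, 0.19 and 0.17 for the HIF group, with 26, 31 and 30 of the 34 genes higher. Over all genes, 39.9, 60.8 and 46.6% were higher with LDL in those pairs.

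**Figure D3:**
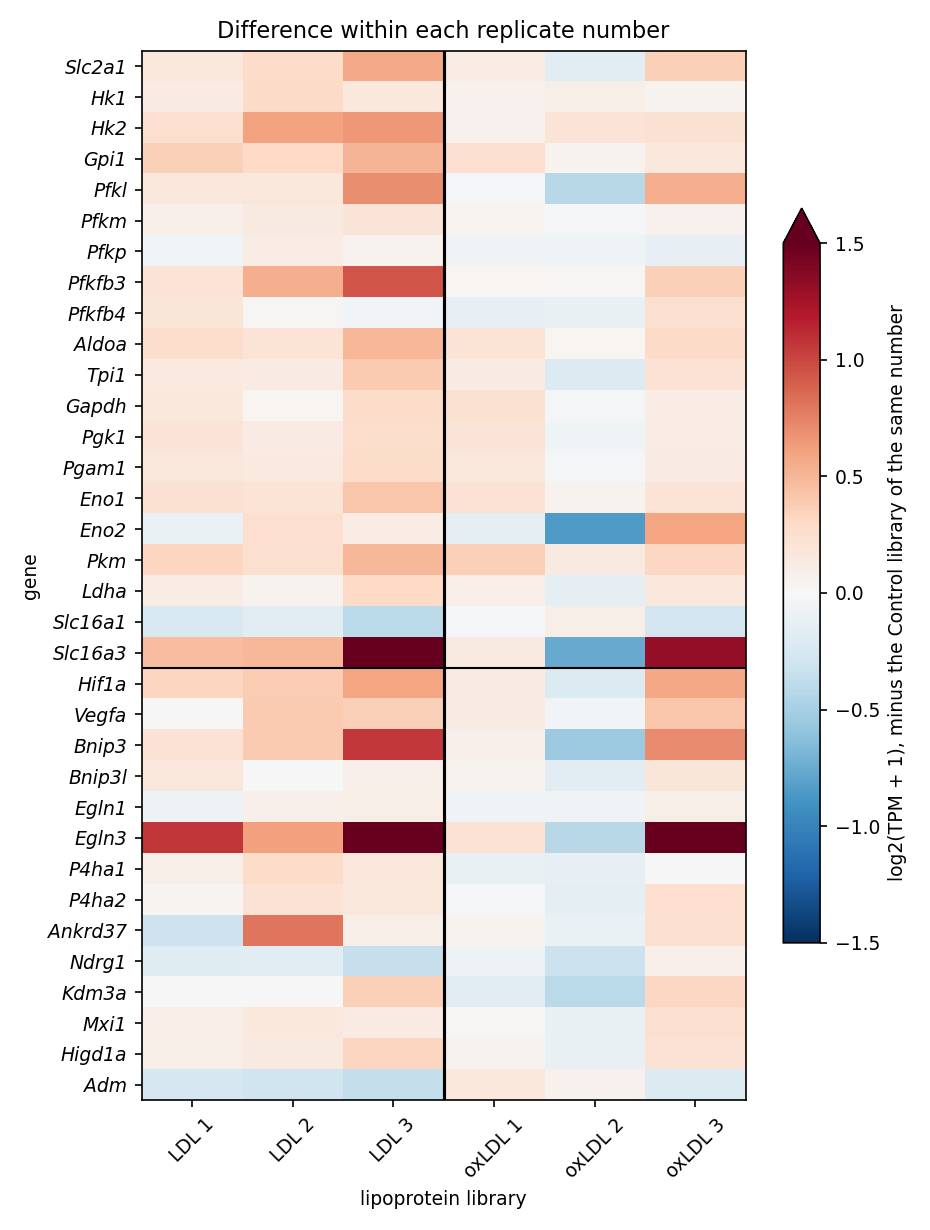
Difference in log2(TPM + 1) between each lipoprotein library and the Control library of the same number, by gene, glycolysis above the black line and HIF group below it; red is higher with the lipoprotein and blue lower, with colours saturating at 1.5. The LDL columns are mostly red, with 26, 31 and 30 genes higher, and the column of oxLDL 2 has 9 of 34.

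The third comparison set oxLDL against LDL. It reuses the LDL libraries of the first comparison and the oxLDL libraries of the second, so it is not independent of either. The mean was lower with oxLDL in 31 of the 34 genes, against 49.7% of all genes, with a median log2 difference of -0.12 for glycolysis and -0.12 for the HIF group and 0.00 for all genes. None passed the adjusted test, as 0.104% of all genes did. At an unadjusted p under 0.05, 3 genes were lower with oxLDL, P4ha1, Hk2 and Pfkfb3, against 2.31% of all genes, and 0 were higher, against 1.6%. In the blocked fit 4 were lower, against 4.45%, and 1, Adm, was higher, against 4.05%. The count of lower genes was 6 without LDL 1, and 0 without the 3 libraries numbered 2. In 20 genes oxLDL was lower in every numbered pair, where 14.9% of all genes were. All 9 macrophage markers (median log2 difference -0.24), 3 of 4 melanocyte markers (median -0.25), 3 of 3 smooth muscle markers (median -0.06) and Tnnt2 (-0.04) also had a lower mean with oxLDL, while 5 of 8 endothelial (median 0.01) and 6 of 11 fibroblast markers (median 0.02) had a higher one. The part of these markers was not tested.

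The oxLDL and LDL libraries did not overlap in 6 of these genes: P4ha1, Hk2, Pfkp, Aldoa and Pgk1 were lower with oxLDL, where 4.2% of all genes were, and Adm was higher, where 4.11% were. For P4ha1 the log2 difference was -0.26 (95% CI -0.41 to -0.11, adjusted p = 0.564) and for Hk2 -0.34 (95% CI -0.55 to -0.12, adjusted p = 0.652). For Adm it was 0.31 (95% CI -0.04 to 0.66, adjusted p = 1), although the lowest oxLDL library, at 411 TPM, stood less than 1 TPM above the highest LDL library, at 410.1 TPM. The gap was also narrow for Pgk1, with oxLDL 1 at 735.5 and LDL 1 at 737.1 TPM. For Pfkp these libraries stood at 32.15 and 32.36 TPM. The intervals for Egln3 (-1.45 to 0.18), Slc16a3 (-1.52 to 0.31) and Bnip3 (-1.13 to 0.17) were wide.

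Libraries of 1 group also differed from each other. Relative to the mean of the 9 libraries, the median glycolysis gene stood at -0.03, 0.24 and 0.17 (log2) in LDL 1 to 3, at -0.08, -0.00 and 0.03 in oxLDL 1 to 3, and at -0.18, 0.04 and -0.20 in Control 1 to 3. For the HIF group these values were 0.02, 0.24 and 0.09 with LDL, -0.11, -0.11 and 0.09 with oxLDL and -0.12, 0.10 and -0.17 in Control. Control 2 was thus above LDL 1 in both groups of genes. It was the highest Control library for 23 of the 34 genes, against 24.6% of all genes tested, and LDL 2 was the highest LDL library for 24, against 37.1%. Among the LDL libraries LDL 1 was the lowest for 26 genes, against 53.7% of all genes. The endothelial marker sum was 337.6 TPM in LDL 1 and 136 TPM in LDL 2, and 300.8 TPM in Control 1 and 129.9 TPM in Control 2; its part in these levels was not tested.

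**Figure D4:**
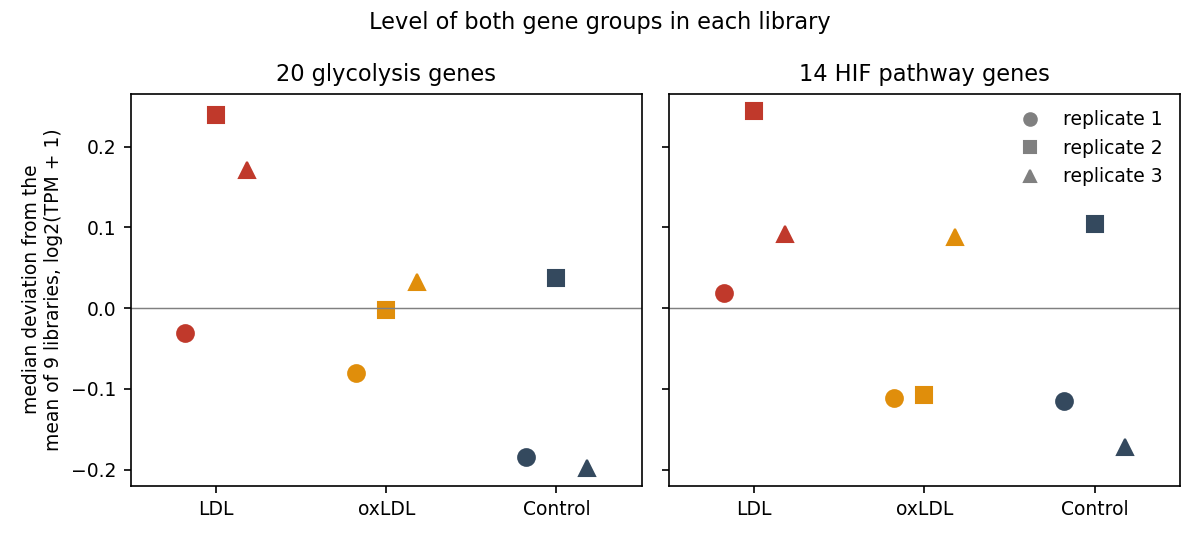
Median deviation of the 20 glycolysis genes (left) and the 14 HIF group genes (right) from their mean over the 9 libraries, on the log2(TPM + 1) scale, 1 point per library with the replicate number as symbol. LDL 2 is the highest library in both panels at 0.24, and Control 3 the lowest at -0.20 and -0.17.

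Where a step has more than 1 isoenzyme, the balance between them can be read within a library. Hk2 made up 23.4 ± 0.445% of hexokinase transcripts (Hk1 and Hk2) with LDL, 20.6 ± 1.47% with oxLDL and 19.6 ± 2.42% in Control (SD, n = 3), and each LDL library was above the highest Control library, at 21.9%. Pfkfb3 made up 79.1 ± 6.03% of Pfkfb3 and Pfkfb4 with LDL, 74.6 ± 0.682% with oxLDL and 72.7 ± 0.137% in Control (SD, n = 3), with LDL 1 at the level of Control. The share of Slc16a3 in the sum of Slc16a1 and Slc16a3 was 82.2 ± 4.21% with LDL, 72.5 ± 5.38% with oxLDL and 67.1 ± 13.1% in Control (SD, n = 3), and Control 2, at 79.7%, exceeded LDL 1, at 77.8%.

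The oxygen sensors showed the same kind of balance. Egln3 made up 60.1 ± 3.12% of Egln1 and Egln3 with LDL, 49.6 ± 6.02% with oxLDL and 41.1 ± 12.1% in Control (SD, n = 3), and the lowest LDL library, at 56.6%, was above the highest Control library, at 53.4%. Bnip3 made up 36 ± 7.04% of Bnip3 and Bnip3l with LDL, 29.3 ± 2.77% with oxLDL and 28.5 ± 4.55% in Control (SD, n = 3), with overlapping groups. P4ha1 stayed at 73 to 76.6% of P4ha1 and P4ha2 in all 9 libraries, and in no library did Aldoc exceed 0.109% of Aldoa and Aldoc, or Eno2 0.574% of Eno1 and Eno2. These shares were not tested.

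**Figure D5:**
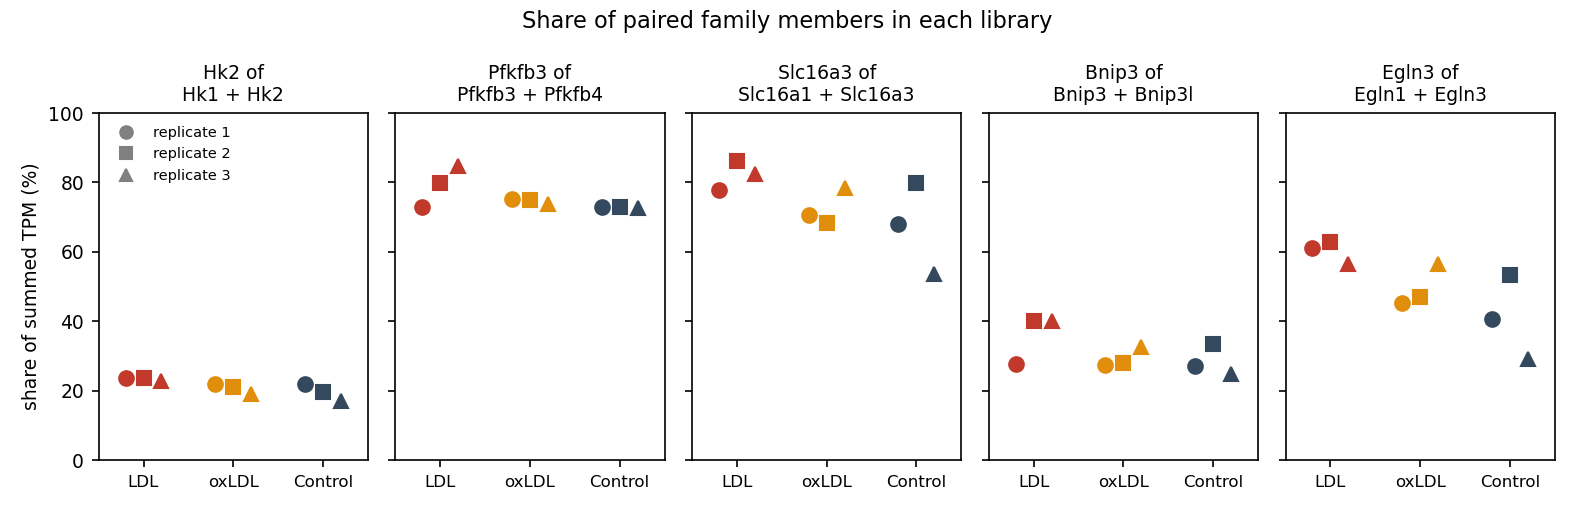
Share of 1 gene in the summed TPM of a pair of related genes, in percent, for each of the 9 libraries, with the replicate number as symbol. The Hk2 and Egln3 shares of all 3 LDL libraries lie above those of all 3 Control libraries, and the Slc16a3 share of Control ranges from 53.5 to 79.7%.

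Further genes of the same pathways were counted for comparison. Of 22 other glycolysis genes, 15 were tested. With LDL and with oxLDL 0 passed the adjusted test, as 0.333 and 0.0148% of all genes did. At an unadjusted p under 0.05, 0 were higher and 0 lower with LDL, against 3.62 and 3.03% of all genes. With oxLDL 0 were higher and 0 lower as well, against 1.79 and 2.07%. In 10 the mean was higher with LDL (49.4% of all genes), and the median log2 difference was 0.07 with LDL and 0.01 with oxLDL. The genes with the smallest p in this fit were Pgam2, Pgm2, Adpgk and Pfkfb1. Their log2 differences with LDL were -0.54, 0.23, -0.12 and -0.27 (adjusted p = 0.852, 0.882, 0.915 and 0.91). In the blocked fit 2 of the 15 were higher and 1 lower with LDL at an unadjusted p under 0.05, against 6.56 and 6.58% of all genes. With oxLDL 0 were higher and 1 lower in that fit, against 4.36 and 4.73%. Pgam2, lower with LDL in every numbered pair, had an adjusted p of 0.0674 with the block. Of 35 other HIF targets and oxygen-sensing genes, which include Pfkfb1 again, 27 had a higher mean with LDL, against 49.4% of all genes. At an unadjusted p under 0.05, 7 were higher, against 3.62%, and 0 lower, against 3.03%. With the block 11 were higher, against 6.56%, and 1 lower, against 6.58%. None of the 35 passed adjustment, as 0.333% of all genes did, and the median was 0.08 with LDL and 0.00 with oxLDL. In 8 of the 35 every LDL library was above every Control library, against 5.61% of all genes. In 1, Epas1, every LDL library was below every Control library, against 5.06% of all genes. Epas1 encodes another HIF α subunit, and its log2 difference with LDL was -0.24 (adjusted p = 0.833).

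Hilpda, a lipid droplet protein induced by HIF, had 20.7, 19.98 and 21.9 TPM with LDL, 17.3, 15.7 and 19.95 TPM with oxLDL and 16.5, 14.9 and 15.4 TPM in Control. Its LDL libraries were above all others, although LDL 2 and oxLDL 3 were almost equal (log2 difference from Control 0.39, adjusted p = 0.235). Loxl2, a collagen crosslinking oxidase, had 119, 120.2 and 117 TPM with LDL, 80.9, 67.6 and 96.8 TPM with oxLDL and 99, 78.4 and 74.2 TPM in Control, again with LDL above all others (0.51, adjusted p = 0.327). Tfrc, the transferrin receptor, had 30.8, 30.6 and 32.3 TPM with LDL, 36.4, 29.6 and 28.9 TPM with oxLDL and 26.3, 20.2 and 19.6 TPM in Control. Both lipoprotein groups were above Control for Tfrc, by 0.50 (adjusted p = 0.251) with LDL and 0.50 (adjusted p = 0.698) with oxLDL.

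Sap30, a subunit of a histone deacetylase complex, had 17.6, 22.1 and 24.1 TPM with LDL, 12.9, 11.9 and 12.3 TPM with oxLDL and 16.3, 16 and 14.8 TPM in Control. The 3 groups did not overlap, with LDL highest and oxLDL lowest. The log2 difference was 0.40 for LDL against Control (adjusted p = 0.334), -0.32 for oxLDL against Control (adjusted p = 1) and -0.72 for oxLDL against LDL (95% CI -0.98 to -0.47, adjusted p = 0.0828).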

How the data were processed

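RNA from 9 libraries, 3 per group, was analysed. The authors deposited TPM values for 51810 genes. Per the labels' protocols, cDNA amplified from 50 ng of total RNA was read in pairs of 100 bases, and the kit used keeps no strand information. The submitters' processing notes name STAR, RSEM 1.3.1 and the build mm10 but no annotation. All 9 columns were used (0 left out), and their totals of 999998.81 to 1000000.43 carry no depth, so no counting interval is given and a value of 0 may be a failed estimate.

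From the deposited TPM, log2 values were computed after adding a pseudocount of 1, and genes averaging under 1 TPM were left out, which kept 13495. limma 3.58.1 in R 4.3.3 was fitted to all 9 libraries, which share one estimate of the spread (6 residual degrees of freedom), with a mean-dependent prior. Tests are two-sided and Benjamini-Hochberg adjusted over the 13495 genes, with a threshold of 0.05. The code was tested on simulated data. Per-gene permutation tests were not used, since 3 against 3 libraries allow no p under 0.1.

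The genes, and the lists beside them, were chosen with earlier results of these data known. Values in every library are given for genes that passed the test, that had non-overlapping groups with either lipoprotein against Control, or that were among the 5 most abundant, and for 11 genes whatever their result, among them Hif1a, Hk2, Vegfa and Adm. The other lists are represented by called genes or up to 4 with the smallest p.

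Sample titles give the replicate numbers. Deviations from group means correlated at 0.172 to 0.497 in 9 same-numbered pairs of libraries and at -0.309 to 0.13 in 18 others, so the numbers pair the samples by this check, not by a stated culture. A fit that adds the number as a block, with 4 residual degrees of freedom, is given where it changes a call or a count. Alternatives were other pseudocounts (0.1 and 5), filters (none, or 5 TPM), median-ratio and quantile scaling, the 6 compared libraries alone, and leaving out each library. Gene positions are those of GENCODE M21 (GRCm38), and figures were drawn with matplotlib 3.10.9.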

Additional observations from a re-analysis of the deposited data

How the results depend on the processing

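The median differences of both gene groups moved by less than the spread between replicates under every alternative run, in all 3 comparisons. That spread, the pooled SD of the library medians, was 0.116 for glycolysis and 0.126 for the HIF group (log2). It is larger than the oxLDL against Control medians of 0.08 and 0.04, so this limit cannot show that those medians are stable. The HIF group median changed sign within it. Leaving out 1 library at a time, the LDL against Control median ranged from 0.15 to 0.32 for glycolysis and from 0.09 to 0.21 for the HIF group, the oxLDL against Control medians from 0.03 to 0.18 and from -0.03 to 0.08, and the oxLDL against LDL medians from -0.20 to -0.08 and from -0.19 to -0.03. No tested gene of either group passed the adjusted threshold in any fit except Gpi1 with the replicate block in LDL against Control (1 gene, log2 difference 0.39, adjusted p = 0.035), and the block changed no other call. The count of genes higher with LDL at an unadjusted p under 0.05 (10) was 18 with the replicate block and 5 to 18 when 1 library was left out. For oxLDL against Control that count (2) was 1 with a pseudocount of 5, 0 without a filter, 1 with median-ratio scaling, 1 with quantile scaling, 1 in a fit of the 6 compared libraries alone, 4 with the replicate block and 0 to 3 with 1 library left out. For oxLDL against LDL the count of lower genes (3) was 2 to 6 with 1 library left out, and 0 without the 3 libraries numbered 2, an alternative chosen after seeing the data. Without those 3 libraries the LDL against Control medians were 0.25 and 0.12 for glycolysis and the HIF group, and those of oxLDL against Control 0.17 and 0.12. Single genes were followed under the alternatives for a chosen set only, which for oxLDL against Control held part of the tested genes. Of the values in that set, 802 kept their direction and side of the threshold. In 7 the direction reversed, all in oxLDL against Control with 1 library left out. Ldha ranged from -0.034 to 0.17, Slc16a3 from -0.077 to 0.66 and Bnip3 from -0.12 to 0.37. Genes with small differences in that comparison, such as Adm and Egln1, were not in the set. Over all tested genes of both groups, those with a higher mean with oxLDL fell from 27 to 18 without Control 3. More genes than the 7 values show therefore changed direction. The cause was not tested. Over all genes, calls for LDL against Control (45) numbered 115 with the replicate block, 19 without a filter, 9 in the 6 libraries alone, 7 without the libraries numbered 2 and 4 to 38 with 1 library left out; those for oxLDL against Control (2) numbered 17, 10, 1, 5 and 1 to 3, and those for oxLDL against LDL (14) numbered 35, 8, 6, 4 and 1 to 13, in the same order. Median-ratio scaling shifted libraries by -0.06 to 0.05 (log2). The unknown depth limits what can be said of Aldoc, Car9 and Ankrd37.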

Other observations

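The variation of each gene over the 9 libraries was divided into parts that follow the treatment, the replicate number and neither. The median part of the treatment was 36.5% for the 20 tested glycolysis genes, 31.25% for the 14 HIF group genes and 16.9% for all genes tested, and the part of the replicate number was 37.05, 33.9 and 44.2% in the same order. Hk2 (84.1%), Aldoa (79.1%) and P4ha1 (78.6%) had the highest treatment parts among these genes. Egln1 (86.3%), Vegfa (70.4%), Bnip3l (66.4%) and Ldha (65.6%) had the highest parts of the replicate number. Hk1 (59.3%), Eno1 (57.3%), Pfkm (56%), Adm (53.5%), Slc16a1 (53.3%) and Pgam1 (50.8%) also followed mostly the replicate number. Egln3, with a treatment part of 53% and a replicate part of 14.4%, had the widest spread over the 9 libraries, an SD of 0.673 on the log2(TPM + 1) scale, and its highest value was 4.58 times its lowest. Noise alone gives the treatment and the replicate number some part of the variation, so a part does not measure an effect. These parts are descriptions and were not tested.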
